A study of Mus musculus with 10 samples.

Results

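The enzymes of cholesterol synthesis were followed in RNA of sorted mouse bone marrow progenitors. The rule takes the rows of the authors' deposited table whose symbol is Hmgcs1, Idi1, Fdps, Fdft1, Sqle, Lss or Cyp51, and 6 of these 7 symbols were found among 12791 genes. The expression of Hmgcs1 was not analysed here, and only its promoter was searched. The study describes 10 libraries in 3 groups, all from lineage-negative, c-Kit-positive, Sca-1-negative bone marrow cells of C57BL/6 mice. The naive group (3 libraries) came from mice without a tumor. The KDR-negative group (4 libraries) and the KDR-positive group (3 libraries) came from mice that carried GL261, a mouse glioma cell line, at week 4, a stage the labels call late. KDR is a receptor of vascular endothelial growth factor, and GFP knocked into its gene served as the marker of the sort. The labels do not give a KDR status for the naive libraries or an age for the mice, and none says whether the libraries within a group are separate animals. The p-values therefore measure only the spread between these libraries, which may be technical.

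Cells build cholesterol from acetyl-CoA through mevalonate. Mevalonate is turned into isoprenoid units, which are joined into farnesyl diphosphate, and this is either attached to proteins and other molecules or committed to squalene and then folded into the sterol ring. The transcription factor SREBP2, encoded by Srebf2, turns the genes of these enzymes on together when membrane sterol is low, and liver X receptors turn on genes of sterol export when sterol is high. Dividing progenitors need sterol for new membrane, while macrophages take up much of theirs and export the excess.

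Promoter sequence is shown for the members that have both values and an entry in RefSeq (build GRCm38.p6), since the genes share a known regulator and can be compared with how they moved. Each stretch ends at the base before the RefSeq start of the gene, and capitals mark the CCAAT box (CCAAT, or ATTGG on the other strand) and the GC box (GGGCGG, or CCGCCC on the other strand), which do not overlap each other here.
Idi1, chr13:8885356-8885605, plus strand: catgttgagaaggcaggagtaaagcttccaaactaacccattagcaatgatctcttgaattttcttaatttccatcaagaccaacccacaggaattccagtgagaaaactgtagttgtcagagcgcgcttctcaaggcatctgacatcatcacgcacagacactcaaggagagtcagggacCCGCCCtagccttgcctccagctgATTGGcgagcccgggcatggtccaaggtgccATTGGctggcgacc
Lss, chr10:76531355-76531564, plus strand: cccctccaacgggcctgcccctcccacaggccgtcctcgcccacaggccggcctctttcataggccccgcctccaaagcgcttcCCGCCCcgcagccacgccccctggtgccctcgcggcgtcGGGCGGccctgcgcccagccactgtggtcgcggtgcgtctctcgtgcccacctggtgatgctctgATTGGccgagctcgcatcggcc
Cyp51, chr5:4104698-4104947, minus strand: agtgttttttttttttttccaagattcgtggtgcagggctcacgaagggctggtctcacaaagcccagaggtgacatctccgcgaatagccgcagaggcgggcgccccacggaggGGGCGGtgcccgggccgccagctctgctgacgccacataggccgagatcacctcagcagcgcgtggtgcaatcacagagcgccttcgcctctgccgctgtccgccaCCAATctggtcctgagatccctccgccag
The stretch of Lss is shorter, 210 bases, since another RefSeq transcript starts further upstream, but all were searched over the 250 bases before the listed start, on both strands. In this search a CCAAT box was found in 34.5% of 27025 promoters and a GC box in 32.9%, and these 3 promoters and that of Hmgcs1 hold both. The sterol regulatory element, searched as TCACNCCAC, was found in 1.04% of the promoters. Among the members with an entry it was found in that of Hmgcs1 only (137 to 129 bases before the start), whose expression was not analysed here. The E-box CACGTG, in 6.05% of promoters, was in none of the 4. A match describes letters only, and no match says nothing about binding.

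The authors' deposited table gives 2 comparisons between groups. For each gene it holds a log2 fold change, a mean in log2 CPM (scaled read counts), a p-value and its Benjamini-Hochberg adjustment over all genes. It names neither the groups nor the direction, so the comparisons are called the first and the second, and the numerator group is the one that is higher where a fold change is positive. No value per library was used, so depth and the spread within groups are unknown and no standard deviation can stand beside a fold change. Group levels were computed by splitting the mean according to the fold change. Taking groups of equal weight, the denominator levels of the 2 comparisons had a median absolute difference of 0.0087 (log2), and the closest other pair of sides 0.070. With weights chosen from one grid to bring each pair as close as possible, these became 0.0020 and 0.055. The denominator group is therefore treated as shared, and levels use the weights that matched it best. CPM derived in this way summed to 2127125 in the first numerator group against 756537 in its denominator group. In the second comparison they summed to 723665 in the numerator group against 744027 in the denominator group. The deposited means of the first comparison, read as log2 values, summed to 1414419 CPM. This total and 2127125 exceed what counts scaled to library size alone can reach. CPM here can therefore not be read as shares of a library, and how they were scaled was not given in the sources used here. Rescaling each comparison to equal totals would lower every log2 fold change of the first by 1.49 and raise those of the second by 0.04. In bulk samples, fewer cells of a type and less RNA per cell cannot be told apart.

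In the first comparison Idi1 and Fdps, which act on the isoprenoid units, were higher in the numerator group, and Sqle, Lss and Cyp51, which act from squalene onward, lay below 0 without passing the threshold of an adjusted p under 0.05. Of the 6 members 2 were called higher and 0 lower in the authors' deposited table, where 18.8% of all genes were called higher, 3.49% lower and 22.3% in either direction. Their median log2 fold change was 0.03, against -0.13 over all genes. The direction of the 2 calls depends on the scale, since at equal totals Idi1 would stand at -0.10 and Fdps at -0.18.

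Idi1 encodes the isomerase that interconverts the isoprenoid building blocks isopentenyl and dimethylallyl diphosphate. Its derived level was 133 CPM in the first numerator group, 50.8 CPM in the denominator group and 42.1 CPM in the second numerator group. On the deposited scale the first numerator group was thus far above the others, which lay close together. At equal totals the first comparison would give Idi1 -0.10. The log2 fold change of Idi1 in the first comparison of the authors' deposited table was 1.39 (adjusted p = 3.33e-05), a ratio of 2.61. Fdps encodes farnesyl diphosphate synthase, which supplies both sterols and protein prenylation and is the target of the bisphosphonate drugs used against bone loss. Its derived level was 258 CPM in the first numerator group, 104 CPM in the denominator group and 93.3 CPM in the second numerator group, the same order as for Idi1. The authors' deposited table gives Fdps a log2 fold change of 1.31 in the first comparison (adjusted p = 3.7e-05), a ratio of 2.47.

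Fdft1 encodes squalene synthase, the step that commits farnesyl diphosphate to sterols. Its derived levels were 22.3, 14.8 and 11.3 CPM in the first numerator, denominator and second numerator group, again in this order. Its log2 fold change of 0.59 did not pass in the first comparison of the authors' deposited table (adjusted p = 0.347). Sqle encodes squalene epoxidase, a rate-limiting enzyme of the later pathway. Its derived levels were 20.99 CPM in the first numerator group, 30.4 CPM in the denominator group and 27.9 CPM in the second numerator group, so here the first numerator group was the lowest. The authors' deposited table gives Sqle a fold change of -0.54 on the log2 scale (adjusted p = 0.301).

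Lss encodes lanosterol synthase, which closes the sterol rings. It had 7.43 CPM in the first numerator group, 12.8 CPM in the denominator group and 11.2 CPM in the second numerator group. In the first comparison of the authors' deposited table its log2 fold change was -0.79 (adjusted p = 0.441). Cyp51 encodes the cytochrome P450 that takes a methyl group off lanosterol. It had 10.4, 16.8 and 14.04 CPM in the same order of groups, so on the deposited scale Sqle, Lss and Cyp51 shared an order of groups that differs from that of Idi1, Fdps and Fdft1. At equal totals all 6 members would lie below 0, from -0.10 for Idi1, -0.18 for Fdps and -0.90 for Fdft1 to -2.03 for Sqle, -2.18 for Cyp51 and -2.28 for Lss. On the deposited log2 scale the authors' deposited table gives Cyp51 -0.69 in the first comparison (adjusted p = 0.372). For Sqle, Lss, Cyp51 and Fdft1, neither a difference nor its absence is shown. Among genes with a mean of 3 to 4 log2 CPM, where Lss and Cyp51 lie, the called fold changes nearest to 0 in the authors' deposited table were 1.18 and -1.19, and at 4 to 5 log2 CPM, where Fdft1 and Sqle lie, they were 0.82 and -0.81. The fold changes of these 4 members were smaller than that.

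**Figure D1:**
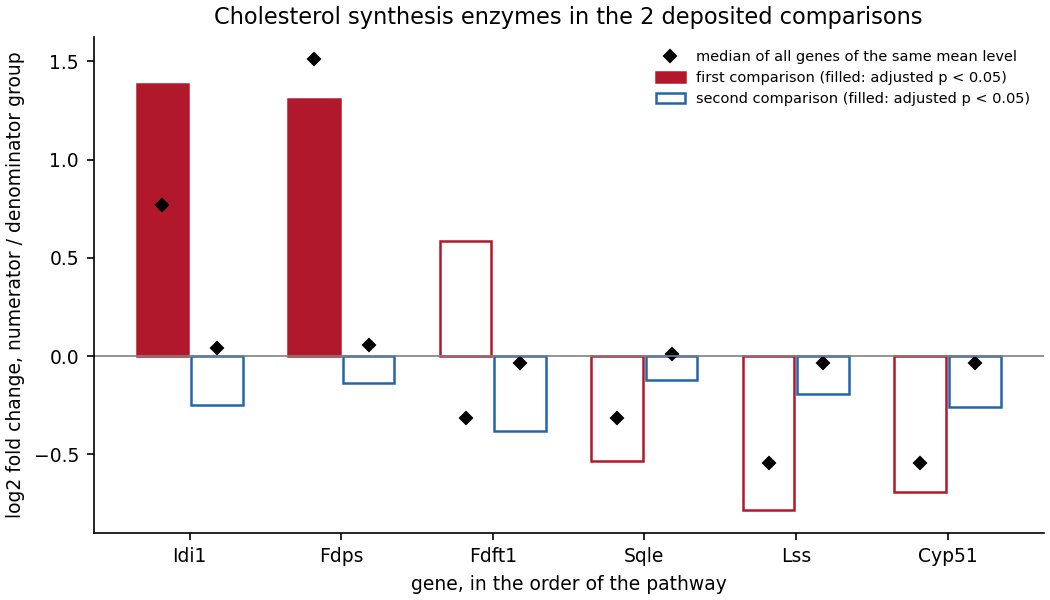
Log2 fold change of each member in the first (red) and the second (blue) deposited comparison, as bars from 0, with the genes in pathway order. Filled bars passed an adjusted p under 0.05, and diamonds give the median of all genes in the same bin of mean level. Idi1 at 1.39 and Fdps at 1.31 are the filled bars, and all 6 blue bars lie below 0.

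Fold changes of the first comparison rose with the level of the gene over this range, and most members lay near that trend, Fdft1 and Idi1 above it. The median over all genes of the authors' deposited table was -0.54 for those with a mean of 3 to 4 log2 CPM, -0.31 at 4 to 5, 0.77 at 6 to 7 and 1.51 at 7 to 8. Fdps, at a mean of 7.48 log2 CPM, lay 0.20 below the median of its bin (a difference of -0.20), where 97.0% of 460 genes were called higher. Idi1, at 6.49 log2 CPM, lay 0.62 above the median of its bin, where 51.6% of 1189 genes were called higher, and 83.9% of those genes had a smaller fold change. Fdft1 lay 0.90 above the median of its bin, with 87.5% of genes below it. The differences from the bin median were -0.22 for Sqle, -0.24 for Lss and -0.15 for Cyp51, with 31.0%, 33.3% and 39.8% of the genes in their bins below them. Relative to genes of like level, Idi1 and Fdft1 were therefore on the high side, and Fdps stood with Sqle, Lss and Cyp51 a little below the middle.

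**Figure D2:**
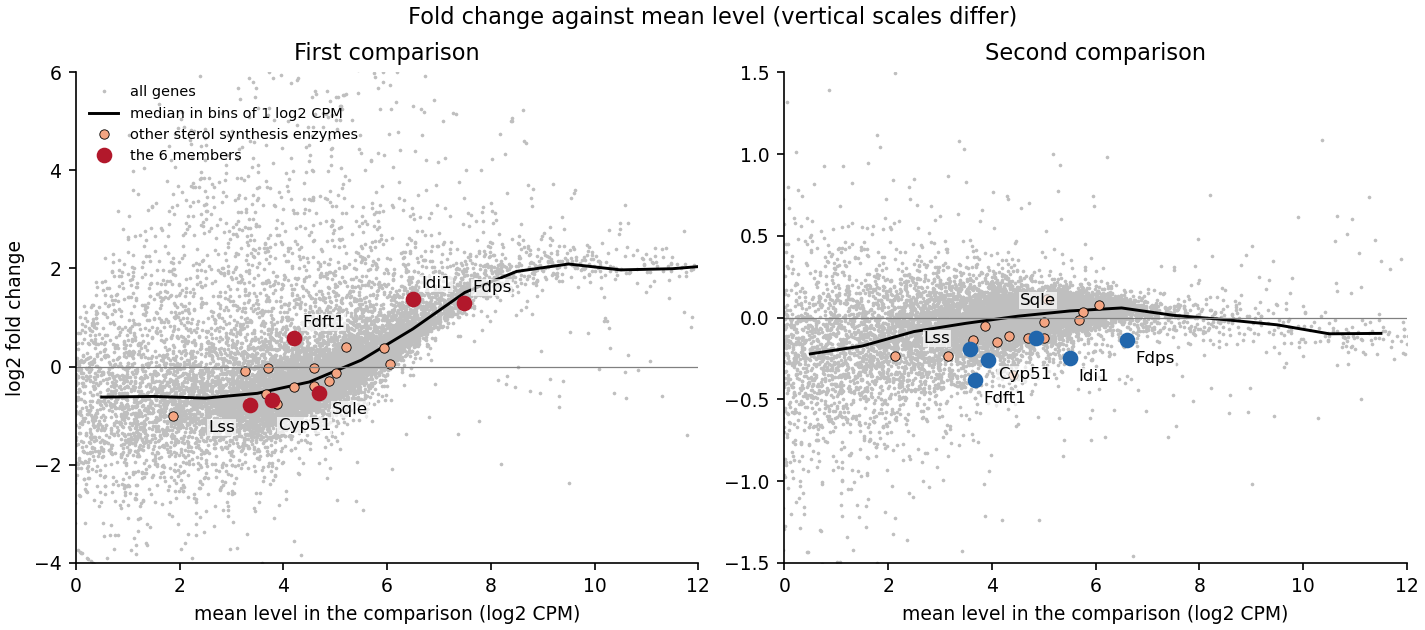
Log2 fold change against mean level (log2 CPM) for all genes (grey), the other sterol synthesis enzymes (orange) and the members (large points) in the first (left) and second (right) deposited comparison. The black line joins medians in bins of 1 log2 CPM, and the vertical scales differ and leave out genes beyond them. On the left Fdps lies 0.20 under its bin median and Idi1 0.62 above it, and on the right all members lie below the line.

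In the second comparison every member lay slightly below 0, and none was called. Of the 6 members 0 passed at an adjusted p under 0.05 in the authors' deposited table, where 0.109% of all genes (14) were called, and 0 passed at an unadjusted p under 0.05, which 0.336% (43) of all genes did. The program behind these tests was not given in the sources used here. Among the members Fdft1 had the lowest value in the authors' deposited table, at -0.38 (p = 0.454), followed by Cyp51 at -0.26 (p = 0.639) and Idi1 at -0.25 (p = 0.433). Lss stood at -0.19 (p = 0.686), Fdps at -0.14 (p = 0.633) and Sqle at -0.12 (p = 0.675) in the authors' deposited table, and the adjusted p was 1 for each. The median of the members was -0.22, against 0.00 over all genes, of which 49.6% lay below 0.

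Most genes of this comparison lay close to 0, so small values stood low among genes of like level. Of the genes with a mean of 5 to 6 log2 CPM, 1.19% had a lower fold change than Idi1, and at 6 to 7 log2 CPM 2.90% had a lower one than Fdps. The corresponding shares were 3.93% for Fdft1, 8.32% for Cyp51, 11.4% for Sqle and 14.8% for Lss. These shares describe the table and are no test, and the members can share a source of variation. No member changed direction in the second comparison when the fold changes were centred on the median of all genes, rescaled to equal totals or set against genes of the same level.

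**Figure D3:**
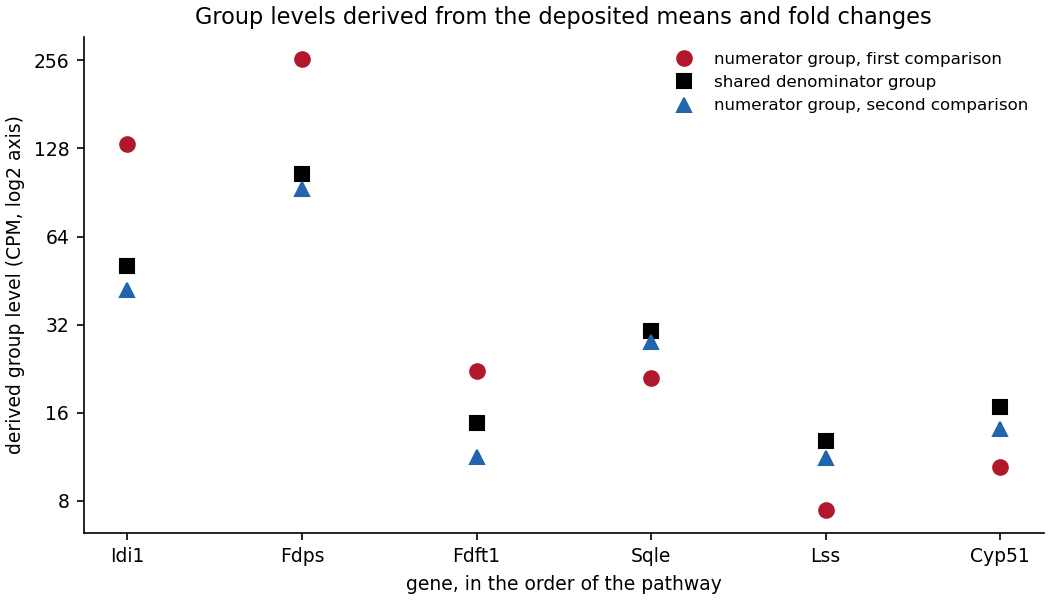
Levels of each member (CPM, log2 axis) in the first numerator group (circles), the shared denominator group (squares) and the second numerator group (triangles), derived from the deposited means and fold changes, without an error since no library values were used. For Idi1, Fdps and Fdft1 the first numerator group is the highest, for Sqle, Lss and Cyp51 it is the lowest, and the second numerator group is below the denominator group for all 6, an order that holds on the deposited scale.

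Since the denominator group is shared, the difference of the fold changes sets the numerator groups against each other. It was 1.63 (log2) for Idi1, 1.44 for Fdps and 0.97 for Fdft1, and -0.41 for Sqle, -0.59 for Lss and -0.43 for Cyp51. The median difference was 0.28 for the members and -0.11 for all genes. Directions depend on the scale here too, since at equal totals the differences would be 0.10 for Idi1, -0.09 for Fdps and -0.56 for Fdft1, and -1.94 for Sqle, -2.12 for Lss and -1.96 for Cyp51. These differences were not tested, since the spread between libraries is unknown.

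Most genes in the rest of the sterol pathway had no call, like most genes of the table. In the first comparison 18.8% of all genes were called higher and 3.49% lower, with a median of -0.13. Of 15 other enzymes listed, 14 were measured, of which 1 was higher and 0 lower in the first comparison of the authors' deposited table (1 and 0 at an unadjusted p under 0.05), with a median of -0.11. The higher gene was Acat2, which encodes the cytosolic enzyme that joins acetyl-CoA units at the start of the pathway, for which the authors' deposited table gives 1.37 (adjusted p = 0.000189), or -0.13 at equal totals. In the authors' deposited table Sc5d, the desaturase of a late step, stood at -0.76, the scaffold gene 0610007P14Rik at 0.38 and Ebp, a sterol isomerase, at 0.40, none of them called. Mvk, Pmvk and Mvd, the enzymes between mevalonate and Idi1, have -0.55, -0.29 and -0.04 in the authors' deposited table, none of them called. Mvk and Mvd lie at 3 to 4 log2 CPM, where 8.29% of genes were called higher, and Pmvk at 4 to 5, where 8.9% were. Their differences from the bin median were -0.01 for Mvk, 0.02 for Pmvk and 0.51 for Mvd. For these enzymes neither a difference nor its absence is shown. In the second comparison 11 of these 14 enzymes lay below 0, with a median of -0.12 and the authors' deposited table gives the lowest value, -0.35 (p = 0.323), to Sc4mol, a methylsterol oxidase. With the members, 17 of 20 sterol synthesis genes lay below 0 there and 0 were called, also at an unadjusted p under 0.05.

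In the first comparison, where 18.8% of all genes were called higher and 3.49% lower, genes that sense sterol gave 1 call among 11. This was Nr1h3, which encodes liver X receptor alpha, with 4.44 (adjusted p = 4.35e-12) per the authors' deposited table and 2.95 at equal totals. It went from a derived level of 2.76 CPM in the denominator group to 60.1 CPM. Insig1, which holds SREBP in the endoplasmic reticulum and is itself turned on by SREBP, stood at 0.74 (adjusted p = 0.13) in the first and -0.38 (p = 0.343) in the second comparison of the authors' deposited table, with the same signs as Fdft1. In the first comparison of the authors' deposited table Nr1h2, which encodes liver X receptor beta, stood at 0.54 and Mbtps2, a protease that frees SREBP, at -1.04, neither called. For Srebf2 itself the authors' deposited table gives -0.09 and -0.10 in the 2 comparisons, with adjusted p-values of 0.923 and 1. Among 9 fatty acid genes that SREBP also controls 0 were called in the first comparison of the authors' deposited table, and 2 lay above and 1 below 0 at an unadjusted p under 0.05, which 30.8% of all genes passed, 22.4% above and 8.33% below 0. These were the acetyl-CoA carboxylase gene Acaca at 0.85 and the desaturase gene Fads1 at 0.61, and the elongase gene Elovl6 at -1.21, while Scd2, another desaturase, stood at -0.38 in the authors' deposited table. The list's median was -0.22.

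Of 13 genes that use isoprenoids beside sterol synthesis, 1 was higher in the first comparison of the authors' deposited table and 0 lower, with a median of -0.30. Over all genes 18.8% were called higher and 3.49% lower there, with a median of -0.13. The authors' deposited table gives Coq2, which attaches the isoprenoid tail of ubiquinone, 0.72 (adjusted p = 0.034), or -0.77 at equal totals. The prenyltransferase genes Fntb and Pggt1b had -0.67 and -0.70 and Pdss2, which builds the ubiquinone tail, -0.97 per the authors' deposited table, none of them called. Of 12 genes of sterol uptake, storage and efflux, 6 were higher and 0 lower in the first comparison, against 18.8% and 3.49% of all genes. Their median was 1.04, and 4 of the 12 lay below 0. Equal totals would lower each log2 fold change by 1.49, and so bring this median below 0. Lrp1, a large endocytic receptor, stood at 3.57 in the authors' deposited table, Abca1, the pump that exports cholesterol, at 2.90, Lipa, the lysosomal acid lipase, at 1.95 and Npc2, which carries cholesterol out of the lysosome, at 1.56. The others called were Cyp27a1, a sterol hydroxylase, at 1.83 and the exporter gene Abcg1 at 1.47 in the authors' deposited table. At equal totals these 6 stood at 2.08, 1.41, 0.46, 0.07, 0.34 and -0.03, so Abcg1 turns and Npc2 comes close to 0. In the second comparison 0 of the 45 genes in these 4 lists were called, and 0 passed at an unadjusted p under 0.05.

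**Figure D4:**
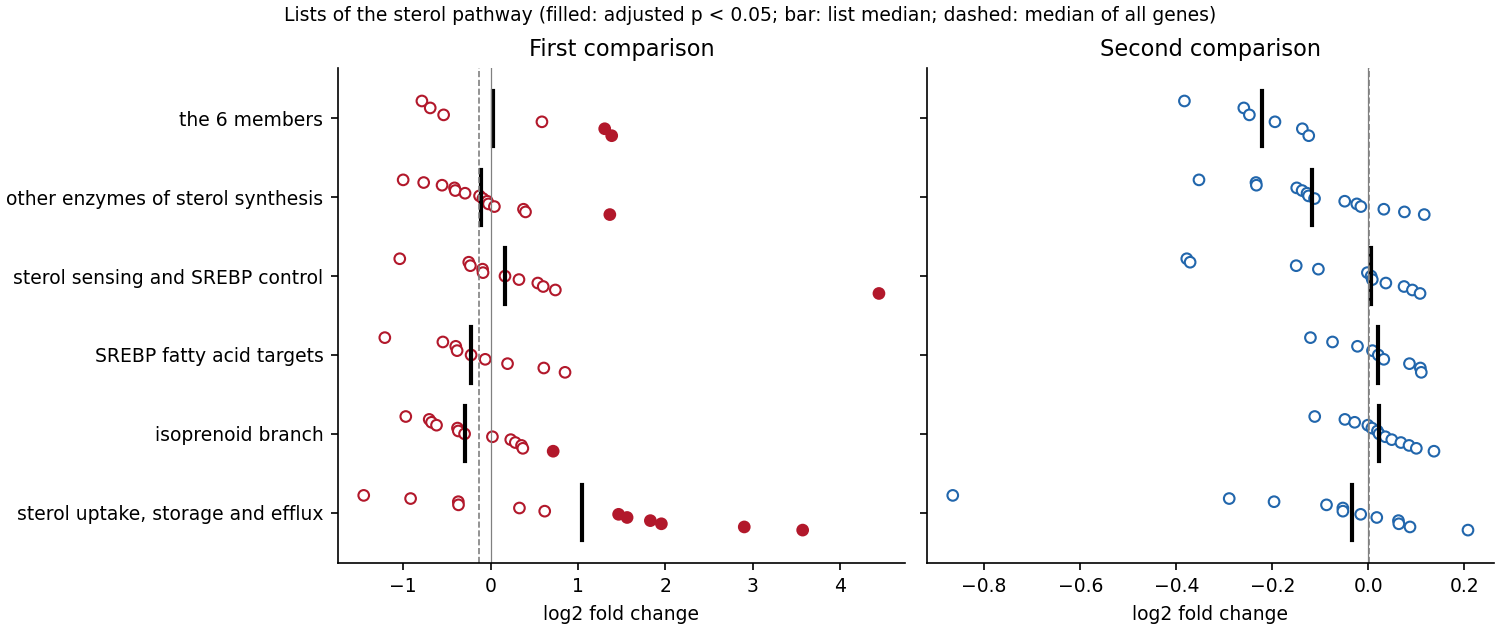
Log2 fold change of every measured gene of the members and of 5 other lists of the sterol pathway in the first (left) and second (right) deposited comparison, with different horizontal scales. Filled points passed an adjusted p under 0.05, the thick bar is the list median and the dashed line the median of all genes. On the left 6 of 12 genes of uptake, storage and efflux are filled, against 2 of 6 members and 22.3% of all genes called. On the right no point is filled.

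Some of these genes share sequence or exons with others, and how reads were shared out was not given in the sources used here. Under the GENCODE M21 annotation, other genes with a stretch of at least 200 bases at 90% identity or more were 4 for Idi1, of which 3 are pseudogenes, and 6 for Fdps, of which 5 are pseudogenes, with a longest match of 1066 bases at 96.7% identity. No such copy was found for Sqle, Lss or Cyp51. Fdps also shares 1124 of its exon bases (26.7%) with Gm43738, a gene annotated on the same strand across Fdps, and Idi1 shares 9.22% with Gm48574 on the opposite strand. The values of Idi1 and Fdps are therefore uncertain in how reads were assigned. Lss shares 3.53% of its exon bases with 4930483K19Rik on the opposite strand. Fdft1 has 1 pseudogene of this kind, and 774 of its exon bases (18.3%) also belong to an exon of Ctsb, which encodes the lysosomal protease cathepsin B and lies on the opposite strand. On the log2 scale the authors' deposited table gives Ctsb fold changes of 3.13 and -0.03 in the 2 comparisons, with adjusted p-values of 3.4e-17 and 1. Its derived level was 351 CPM in the first numerator group and 40.2 CPM in the denominator group, against 22.3 and 14.8 CPM for Fdft1. Without strand, reads from the shared bases cannot be told apart, and their part in the value of Fdft1 was not tested. Cyp51 shares 3.76% of its exon bases with Akap9, whose fold change in the first comparison of the authors' deposited table was -0.93 (adjusted p = 0.197). Acat2 is 97.7% identical over 1477 bases to Acat3, which was lower in the first comparison of the authors' deposited table at -4.74 (adjusted p = 0.000257) and again lower, at -4.44 (adjusted p = 0.0128), in the other one. Acat3 lay at 0.367 and 0.453 CPM in the numerator groups and 9.81 CPM in the denominator group, so these fold changes rest on levels near 0. Acat2 also has a matching stretch in Tcp1, which encodes a chaperonin subunit and was higher in the first comparison, like Acat2, with 1.34 per the authors' deposited table (adjusted p = 4.36e-05) and -0.15 at equal totals. Coq2 has 1 pseudogene copy, matching over 1006 bases at 96.5% identity.

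Markers of other cell types moved with the first comparison. All 14 macrophage markers were higher there, with a summed derived level of 4894 CPM in the first numerator group, 198 CPM in the denominator group and 88.2 CPM in the second numerator group. The lowest of their levels was that of Timd4, at 0.221 CPM in the second numerator group. Levels derived in this way cannot be 0, so they do not show that a gene was detected in a group. In the second comparison, where 0.109% of all genes were called, all 14 macrophage markers lay below 0 and 1 passed. This was C1qa, with -2.41 per the authors' deposited table (adjusted p = 0.0195). All 10 megakaryocyte markers were higher in the first comparison, with sums of 1715, 215 and 154 CPM in the order first numerator, denominator and second numerator group. Of 9 B cell markers 7 were lower, with sums of 198, 497 and 423 CPM, while Cd79b lay above 0, at 0.86, without a call. Of 12 erythroid genes 5 were higher and 3 lower, with sums of 29384, 1803 and 1885 CPM. Over all genes 18.8% were called higher and 3.49% lower in the first comparison. Of 14 genes of cycling cells 3 were higher and 0 lower, with a median of 0.48, where 18.8% of all genes were called higher. Their sums were 3102, 1350 and 1364 CPM on the deposited scale. Pcna, with the highest mean of the 14 in the first comparison (10.12 log2 CPM), weighed most in these sums. Aurka at -0.48 and Bub1 at -0.72 lay below 0 there, and 12 lay above. Equal totals would lower each log2 fold change by 1.49, and so bring the median of this list below 0. Cdk1, 1 of the 3, would then stand at -0.74, while the deposited 1.83 of Pcna and 1.71 of Ccnb1 exceed that shift. Of the genes of the sort itself, Kit stood at -0.60 (adjusted p = 0.128) and Ly6a, which encodes Sca-1, at 0.43 (adjusted p = 0.402) in the first comparison of the authors' deposited table, and Kdr was low in every group, with at most 2.24 CPM. Kit and Ly6a belong to a list of 8 progenitor genes, with a median of 0.50 in the first comparison. Of that list 3 were called higher and 0 lower, against 18.8% and 3.49% of all genes. The authors' deposited table gives these 3 as Mpo with 2.40 (adjusted p = 1.27e-14), Elane with 2.37 (adjusted p = 8.34e-15) and Ctsg with 2.03 (adjusted p = 3.59e-11). At equal totals they would stand at 0.91, 0.88 and 0.54. The part of these cell types in the values of the sterol genes was not tested.

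The genes nearest to the members by their pair of log2 fold changes were Metap1d, Tmem159, Eif4ebp3, Fam193b and Abhd14b. Their distance from the members' medians was 0.026 to 0.051 over 2 comparisons, among 6980 named genes within the members' range of levels, of which 32 lay within 0.1. Since the members lie on both sides of that median, these genes resemble no single member.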

How the data were processed

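RNA libraries were made from 0.1 ug of total RNA with an Illumina TruSeq kit, per the labels' protocols. Bowtie 0.12.2 and genome build mm8 are named, without their roles, per the submitters' processing notes. The programs that counted and tested, like the annotation, were not given in the sources used here. Values came from 1 table, which holds, per the file headers, log fold changes and log CPM, read here as log2 values. Group levels were derived with base 2 only. No other base was tried, so their match between comparisons does not settle the base. P-values deposited by the authors come with adjusted values that equal a Benjamini-Hochberg adjustment recomputed here. No library values were used, so depth is unknown and the authors' tests stand as deposited.

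Group levels assume that the mean CPM is a weighted mean of the groups. The numerator weights that matched the denominator levels best over 9044 genes above 3 log2 CPM were 0.48 and 0.59 (grid step 0.01). The members and lists were chosen with earlier results of these data known. Genes named are the members, the 4 genes of each pathway list with the smallest p in the first comparison, and the 5 nearest genes. Mvk, Pmvk, Mvd, Sc4mol, Srebf2, Abcg1, Cyp27a1, Ctsb, Akap9, Acat3, Tcp1 and the marker genes were named after their values were seen. Copies were searched with blastn in GENCODE M21 transcripts. Python 3.11.15, numpy 2.4.6 and pandas 2.3.3 were used.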

Additional observations from a re-analysis of the deposited data

How the results depend on the processing

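The count of 2 members called in the first comparison and of 0 in the second was the same at an adjusted p under 0.01 and at an unadjusted p under 0.05. No p-value could be recomputed under another scale. In the first comparison the median log2 fold change of the members moved from 0.03 to 0.16 when centred on the median of all genes, to -1.47 at equal totals and to -0.17 relative to genes of the same level. Idi1 turned to -0.10 at equal totals, and Fdps turned to -0.18 at equal totals and to -0.20 relative to genes of the same level. At equal totals 3 of the 6 members kept their direction, and Fdft1 stood at -0.90. In the second comparison the median of -0.22 became -0.22 when centred, -0.18 at equal totals and -0.21 relative to genes of the same level. The median difference of the comparisons, 0.28, became 0.41 when centred and -1.25 at equal totals, alternatives chosen after seeing the data. The median level of the members in the denominator group was 4.499 log2 CPM, and 4.51 with equal weights. The count of 9 called genes in the other pathway lists was the same with a mean of at least 4 CPM required. No paired analysis was possible because the table gives comparisons of groups and no values per library. For the same reason leaving out single replicates was not run.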
